A study of Mus musculus with 4 samples.

Results

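The genes described here are 37 macrophage and dendritic cell genes, chosen by symbol out of 18193 genes that the array annotation names singly. They cover tissue-resident macrophage markers (Mrc1, Cd163, Lyve1, Folr2, Stab1, Siglec1, Pf4), the growth factor Csf1 and its receptor Csf1r, pan-macrophage genes (Adgre1, Cd68, Cd14, Lyz2, Mpeg1, Ctss, Aif1) and pan-leukocyte genes (Ptprc, Laptm5, Spi1). The rest are integrins (Itgam, Itgax, Itgb2), Fc receptors and adaptors (Fcgr1, Fcgr3, Fcer1g, Tyrobp, Trem2), scavenger receptors and lectins (Msr1, Marco, Clec7a, Clec10a, Clec4n), chemokine receptors (Cx3cr1, Ccr2) and alternative activation genes (Retnla, Arg1, Chil3). RNA of mammary tumors was measured on 4 Affymetrix Mouse Genome 430 2.0 arrays, 2 of St6gal1-/- and 2 of wild-type tumors. All mice were female C57BL/6, aged 110 days and 14 days past tumor onset, and both genotypes carried PyV-mT, the polyoma virus middle T oncogene that drives mammary tumors. Each array held a pool of 3 tumors from 3 animals. In set 1, 1 null pool was compared with 1 wild-type pool, and set 2 repeated this with other pools. The null mice, littermates of the wild-type ones, were null as whole animals, so their leukocytes and stroma carried the null genotype as did their cancer cells. The promoter of the transgene and the part of St6gal1 that the null allele lacks are not given in the sources used here.

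Macrophages arise from embryonic precursors or blood monocytes and depend on CSF1, which signals through the receptor tyrosine kinase CSF1R. Those resident in connective tissue carry endocytic receptors such as MRC1, CD163, LYVE1 and FOLR2, whereas most myeloid cells carry the Fc receptor adaptors, beta2 integrins and lysozyme. ST6GAL1 adds alpha2-6 linked sialic acid to glycoproteins, and the PyV-mT mammary tumor is known for a dense macrophage infiltrate.

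Values are MAS5 signals, which have no unit and compare arrays, not probe sets, and the pool of set 1 is given before that of set 2. A difference is given as null over wild type on the log2(signal + 44) scale with its standard error (SE, n = 2 pools per genotype), from a limma fit with set and genotype as terms. A gene passed at a Benjamini-Hochberg adjusted p under 0.05 over all 22519 probe sets tested, and is represented by its brightest probe set. The Y-linked genes, measured here in females, read up to 565, which is used as the unspecific level. The St6gal1 probe set above this level did not separate the genotypes: it read 2337 and 3642 in the null pools, against 2330 and 2796 in the wild-type pools, a log2 ratio of 0.19 ± 0.16 (limma adjusted p = 0.554). Whether its target lies in the deleted part is not known, so it neither bears out nor contradicts the labels. The 4 arrays had median signals of 588 and 591 in the null pools and 619 and 593 in the wild-type pools. The Gapdh 3'/5' ratio, a sign of RNA quality, was 0.873 for null beside 0.869 for wild type in set 1. In set 2 it was 2.13 for null beside 1.57 for wild type.

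Of the 37 genes, 32 passed the filter on low signal (a mean at or above the median of all probe sets). The other 5, Siglec1, Itgam, Trem2, Marco and Chil3, were at or below the unspecific level on every array with all of their probe sets. Among the 32, 7 were higher in the null tumors (Retnla, Clec10a, Mrc1, Cd163, Folr2, Pf4, Laptm5), 1 was lower (Cd14) and 24 did not pass. These counts are 21.9% and 3.12% of the 32, beside 5.18% higher, 3.59% lower and 8.77% in either direction of all 11514 genes tested. The 37 genes were chosen with earlier results of these data known, so the shares are a description only. Over the 44 tested probe sets of the 32 genes, 8 were higher and 1 was lower, beside 4.05% higher, 3.25% lower and 7.30% in either direction of all probe sets tested. Of these 44, 16 had both null pools above both wild-type pools and 5 had both below, beside 15.1% and 16.9% of all probe sets. The 24 had log2 ratios between -0.49 and 0.72. In 11 of the 32 genes (34.4%) both null pools read above both wild-type pools, which 17.7% of all genes did, and in 4 (12.5%) both read below, which 17.0% did. The median log2 ratio of the 32 genes was 0.15, with 0.16 in set 1 and 0.12 in set 2, and that of all genes was -0.01. Both adjusted counts were 0 without the set block, 0 without the intensity trend and 0 with any array left out, while 8, 9 and 4 to 5 genes were higher, and 0, 2 and 0 to 1 lower, at an unadjusted p under 0.05. RNA from whole tumors cannot tell fewer cells of a type from less RNA per cell.

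**Figure D1:**
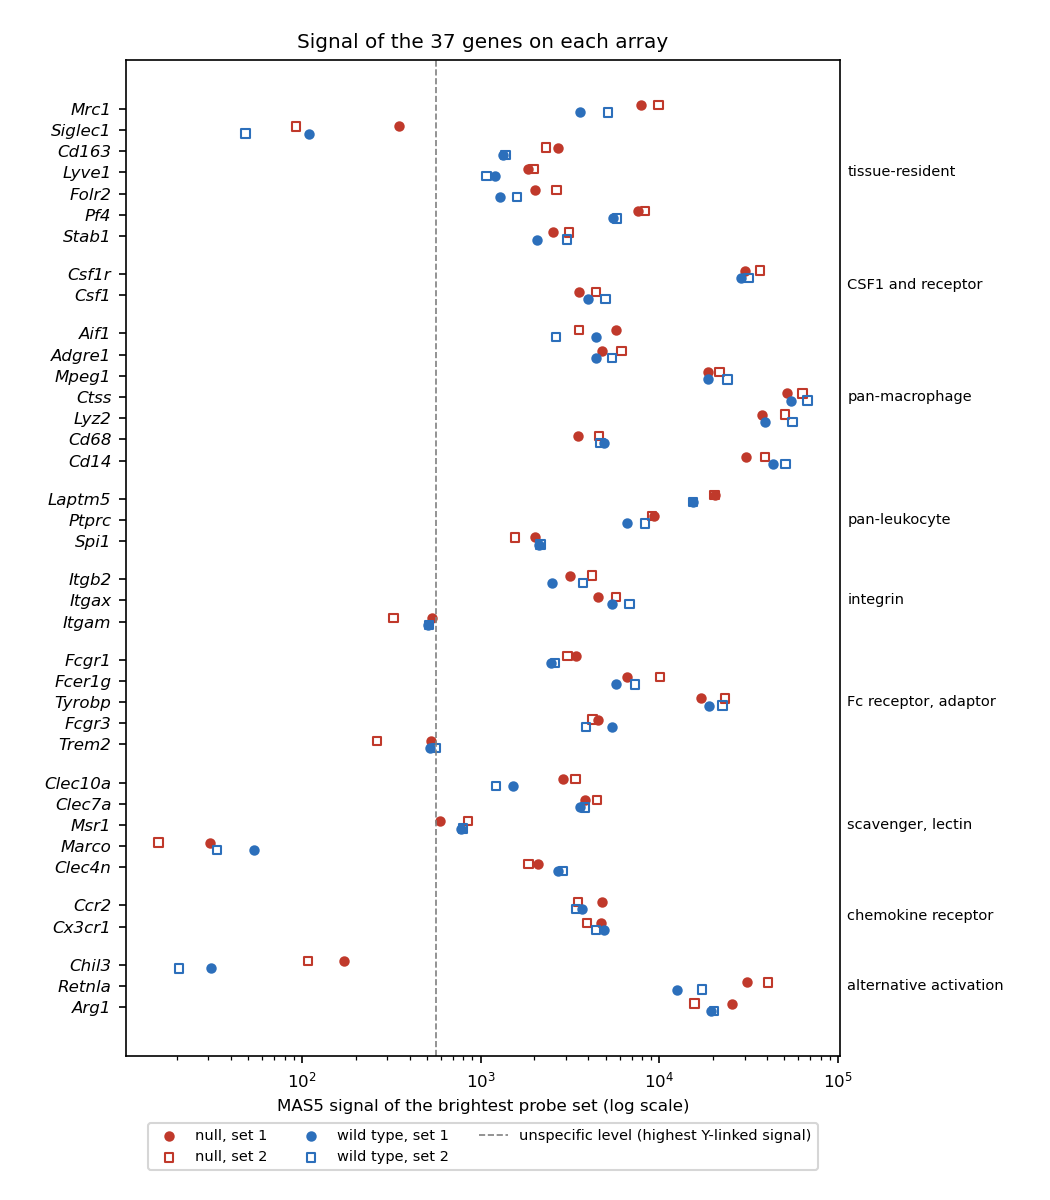
MAS5 signal (log axis) of the brightest probe set of each of the 37 genes, grouped by role, with circles for set 1 and squares for set 2, red for null and blue for wild type. The dashed line is the unspecific level of 565, and Siglec1, Itgam, Trem2, Marco and Chil3 lie at or below it, while the red points of Mrc1, Clec10a and Retnla lie right of the blue ones.

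The tissue-resident markers were the role group with most of the calls: 4 of the 6 tested were higher in the null tumors, none was lower, and their median log2 ratio was 0.70 (0.62 in set 1 and 0.73 in set 2). Mrc1, the mannose receptor that takes up glycoproteins and collagen fragments, read 7902 and 9910 in the null pools, against 3598 and 5164 in the wild-type pools. It was 2.04-fold higher (log2 1.03 ± 0.11, limma adjusted p = 2.785e-05), and the groups did not overlap. Cd163, the scavenger receptor for haemoglobin-haptoglobin complexes, read 2701 and 2319 in the null pools, against 1328 and 1378 in the wild-type pools. Both null values lay above both wild-type values, a 1.82-fold difference (log2 0.87 ± 0.19, limma adjusted p = 0.0108). Folr2, a folate receptor found on resident macrophages, read 2019 and 2653 in the null pools, against 1279 and 1593 in the wild-type pools. It was 1.60-fold higher (log2 0.68 ± 0.19, limma adjusted p = 0.0398), with no overlap, and it was not called when all probe sets were tested without the filter (adjusted p = 0.0554).

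Pf4 encodes the chemokine CXCL4 of platelets, which resident macrophages also carry. It read 7606 and 8343 in the null pools, against 5496 and 5772 in the wild-type pools, with log2 ratios of 0.47 and 0.53 in the 2 sets. The fit gave a 1.41-fold higher level (log2 0.50 ± 0.10, limma adjusted p = 0.00782). Lyve1, a hyaluronan receptor shared by resident macrophages and lymphatic endothelium, has 2 probe sets. The brighter read 1838 and 1976 in the null pools, against 1204 and 1079 in the wild-type pools. Its groups did not overlap, but its log2 ratio of 0.72 ± 0.21 missed the threshold (limma adjusted p = 0.0565). The dimmer read 1716 and 1571 in the null pools, against 645 and 994 in the wild-type pools, and passed with a log2 ratio of 0.995 ± 0.26 (limma adjusted p = 0.0326). Of the lymphatic endothelial markers, Prox1 was at the unspecific level on all arrays, and of 3 markers tested none passed as higher and 1 was lower, Reln, a secreted glycoprotein, with a log2 ratio of -0.56. Flt4, the VEGF-C receptor, had a log2 ratio of 0.45 in set 1 and 0.32 in set 2 and did not pass (limma adjusted p = 0.416). Mmrn1, a secreted multimerin that was not tested, read 752 and 708 in the null pools, against 320 and 577 in the wild-type pools. The summed signal of the 3 tested markers, mostly that of Pdpn, was 12217 and 18664 in the null pools, against 13755 and 17406 in the wild-type pools.

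Stab1, the scavenger receptor stabilin-1, did not pass. It read 2547 and 3112 in the null pools, against 2068 and 3055 in the wild-type pools, a log2 ratio of 0.16 ± 0.16 (limma adjusted p = 0.622), and the groups overlapped. Siglec1, the sialic acid binding receptor CD169, was not tested: its brightest probe set read 350 and 92.8 in the null pools, against 110 and 48.3 in the wild-type pools.

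**Figure D2:**
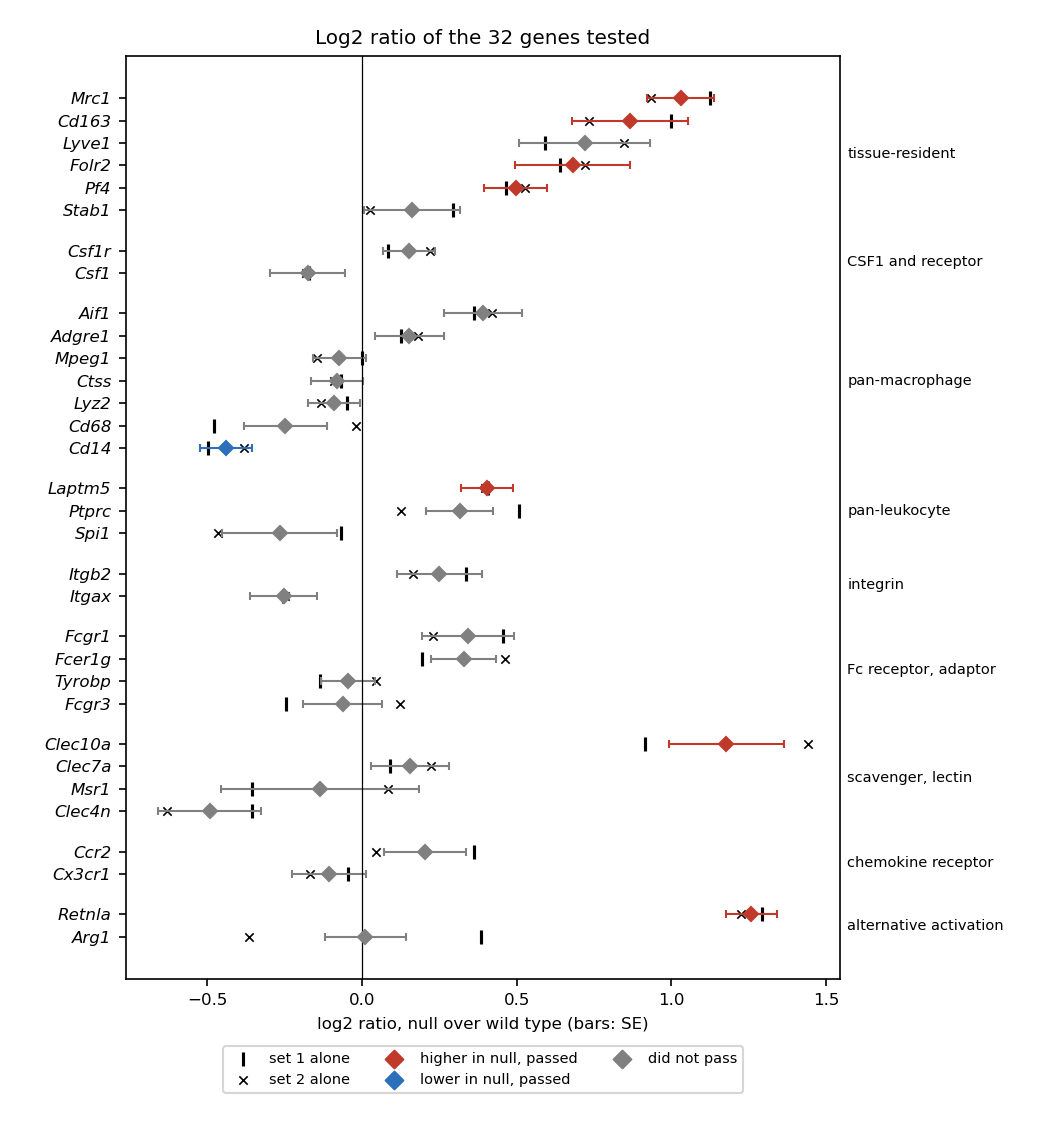
Log2 ratio, null over wild type, of the 32 genes tested, with diamonds for the fitted ratio, bars for its SE, vertical ticks for set 1 and crosses for set 2. Red marks the 7 genes that passed as higher, blue marks Cd14, which passed as lower, and grey marks the 24 that did not pass, of which Lyve1 has the highest ratio at 0.72.

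The sequence just before the start of 3 of the called resident genes is shown to compare them for the core motif of PU.1, the product of Spi1 and the ETS family factor that myeloid genes commonly need. The motif searched was GAGGAA on either strand, which reads TTCCTC on the other. Sequences are the 250 bases before the start, from RefSeq (build GRCm38.p6), each lying on the plus strand, with matches in capitals: Mrc1 at chr2:14229164-14229413, Pf4 at chr5:90772185-90772434 and Cd163 at chr6:124304401-124304650.
Mrc1: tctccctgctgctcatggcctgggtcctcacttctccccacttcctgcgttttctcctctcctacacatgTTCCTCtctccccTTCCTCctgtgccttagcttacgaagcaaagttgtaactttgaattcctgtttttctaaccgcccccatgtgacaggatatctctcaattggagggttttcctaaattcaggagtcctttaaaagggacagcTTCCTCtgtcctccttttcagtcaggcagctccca
Pf4: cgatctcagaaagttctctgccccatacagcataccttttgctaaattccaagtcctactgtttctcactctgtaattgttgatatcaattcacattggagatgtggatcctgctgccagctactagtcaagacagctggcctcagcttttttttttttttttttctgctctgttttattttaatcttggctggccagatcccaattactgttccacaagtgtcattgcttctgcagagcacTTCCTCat
Cd163: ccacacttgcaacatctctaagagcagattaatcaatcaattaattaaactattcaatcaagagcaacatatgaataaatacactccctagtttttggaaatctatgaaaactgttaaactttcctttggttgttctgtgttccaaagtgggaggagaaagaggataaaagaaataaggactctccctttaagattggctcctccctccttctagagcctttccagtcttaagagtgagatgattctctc
Mrc1 held 3 matches, all as TTCCTC, and Pf4 held 1, 8 bases before its start. Cd163 held none, nor did either start of Folr2. In the table, 17 of 29 promoters of the 37 genes held a match (58.6%), belonging to 15 of 25 genes, against 7639 of all 32851 promoters (23.3%). A match is a description of letters and not a binding site. Csf1r, Adgre1, Arg1, Tyrobp, Itgb2, Clec4n, Msr1, Cd14, Lyve1, Siglec1, Spi1 and Clec10a were not used here.

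Csf1r, the receptor that macrophages need to survive, did not pass by its brightest probe set, which read 30270 and 36677 in the null pools, against 28589 and 31483 in the wild-type pools, a log2 ratio of 0.15 ± 0.08 (limma adjusted p = 0.346) with overlap. Its other 2 probe sets had log2 ratios of 0.29 and 0.35 (limma adjusted p = 0.10 and 0.0762), neither passing. Csf1, the ligand, read 3543 and 4405 in the null pools, against 3993 and 5005 in the wild-type pools, a log2 ratio of -0.18 ± 0.12 (limma adjusted p = 0.464). Its other 3 probe sets gave -0.45, 0.15 and -0.17, so they disagreed in sign and none passed. A list of 7 further genes tested held Csf2ra, Csf2rb, Csf2rb2 and Csf3r, chains of other cytokine receptors, with Mitf, Inpp5d and Grb2. None passed limma's test in either direction (0 at an unadjusted p under 0.05). Their median was 0.03, which is no measure of CSF1 signalling. The cytokine genes Il34, Csf2 and Csf3 were below the filter and not tested.

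Of the 7 pan-macrophage genes none was higher, 1 was lower, Cd14, and 6 did not pass, with a median log2 ratio of -0.08. Cd14, the co-receptor for bacterial lipopolysaccharide, read 30452 and 38913 in the null pools, against 43003 and 50698 in the wild-type pools. It fell by 0.44 ± 0.08 on the log2 scale (0.737-fold, limma adjusted p = 0.00462), and both null values lay below both wild-type values. Ctss, the lysosomal protease cathepsin S, read 52114 and 63294 in the null pools, against 54625 and 67473 in the wild-type pools. Lyz2, lysozyme, read 37524 and 50632 in the null pools, against 38780 and 55564 in the wild-type pools. In both genes the groups overlapped, with log2 ratios of -0.08 ± 0.08 and -0.09 ± 0.08 (limma adjusted p = 0.659 and 0.605). Aif1, the actin-bundling protein IBA1, read 5729 and 3561 in the null pools, against 4445 and 2650 in the wild-type pools. Its null pool was the higher in both sets, with a log2 ratio of 0.39 ± 0.12 that did not pass (limma adjusted p = 0.0777). Fitted without the set term, its ratio ran between 0.0233 and 0.76 as 1 array was left out. Adgre1, an adhesion receptor widely used to mark mouse macrophages, had a log2 ratio of 0.15, Mpeg1, the pore-forming perforin-2, -0.07, and Cd68, a lysosomal glycoprotein, -0.25. Both null values of Cd68 lay below both wild-type values.

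Among the pan-leukocyte genes, Laptm5, a lysosomal membrane protein of haematopoietic cells, was higher. It read 20485 and 20388 in the null pools, against 15423 and 15469 in the wild-type pools, a 1.32-fold difference (log2 0.40 ± 0.08, limma adjusted p = 0.00867) with no overlap. This probe set is of the kind whose probes can match other transcripts too. Its other 3 tested probe sets gave 0.36, -0.15 and 0.11, and none passed (limma adjusted p = 0.0554 for the first), so the gene's probe sets disagreed. Ptprc, the CD45 phosphatase, read 9330 and 9078 in the null pools, against 6554 and 8322 in the wild-type pools. Its groups did not overlap, but its log2 ratio of 0.32 ± 0.11 did not pass (limma adjusted p = 0.105). Spi1 read 2022 and 1551 in the null pools, against 2120 and 2160 in the wild-type pools, a log2 ratio of -0.27 ± 0.19 (limma adjusted p = 0.473). Its null values both lay below both wild-type values. Of 11 other pan-leukocyte genes tested, 4 were higher (3 of them Alox5ap, Cd52 and Coro1a), none was lower, and their median was 0.28. Alox5ap, the 5-lipoxygenase activating protein, had a log2 ratio of 0.59 ± 0.13 (limma adjusted p = 0.0112).

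No integrin, Fc receptor or adaptor passed limma's test, while 1 of 2 integrins (Itgax) and 2 of 4 Fc receptors and adaptors (Fcgr1, Fcer1g) had an unadjusted p under 0.05. Itgax, the CD11c subunit that many dendritic cells and macrophages carry, read 4531 and 5705 in the null pools, against 5420 and 6796 in the wild-type pools, with a log2 ratio of -0.26 in set 1 and -0.25 in set 2. The fitted -0.25 ± 0.11 missed the threshold (limma adjusted p = 0.198). Itgb2, the beta2 subunit that pairs with it, read 3181 and 4209 in the null pools, against 2513 and 3748 in the wild-type pools, a log2 ratio of 0.25 ± 0.14 (limma adjusted p = 0.332). The partners thus had opposite signs, neither past the test. Fcgr1, the high-affinity IgG receptor, read 3398 and 3056 in the null pools, against 2463 and 2600 in the wild-type pools, a log2 ratio of 0.34 ± 0.15 (limma adjusted p = 0.202). Fcer1g, the Fc receptor gamma chain that signals through an ITAM (a tyrosine motif), read 6552 and 10102 in the null pools, against 5717 and 7326 in the wild-type pools. Its log2 ratio was 0.33 ± 0.11 (limma adjusted p = 0.0817), higher in null in both sets, with overlap across the sets. Tyrobp, the ITAM adaptor DAP12, read 17172 and 23288 in the null pools, against 18884 and 22562 in the wild-type pools, a log2 ratio of -0.05 ± 0.09 (limma adjusted p = 0.830). Fcgr3, a low-affinity IgG receptor, had -0.06 ± 0.13 (limma adjusted p = 0.845). Of 11 genes of ITAM signalling tested, none passed (1 at an unadjusted p under 0.05), and their median was 0.10.

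Set side by side, 17 pan-myeloid genes (Csf1r with the pan-macrophage, pan-leukocyte, integrin, and Fc receptor and adaptor genes above the filter) had a median log2 ratio of -0.05, with 1 higher, 1 lower and 15 not passing. Their median was 0.0006 in set 1 alone and 0.12 in set 2 alone, both above that of the fitted ratios. The mean log2 signal of these 17 genes was higher in the null pool by 0.04 in set 1 and by 0.05 in set 2. In limma's test 7 of the 17 had an unadjusted p under 0.05. Laptm5, Ptprc, Aif1, Fcgr1 and Fcer1g of these were higher, and Cd14 and Itgax were lower. The mean log2 signal of the 6 resident markers minus that of the 17 genes was -1.45 and -1.44 in the null pools, against -2.10 and -2.02 in the wild-type pools. The difference between the genotypes was 0.65 in set 1 and 0.58 in set 2, and the pools did not overlap. It is a difference of the means of 2 lists on 4 arrays, chosen with earlier results of these data known, and carries no test. With Mrc1, Cd163, Lyve1 and Folr2 alone as the resident markers it was 0.80 and 0.76. The resident minus the pan-myeloid median of the log2 ratios was 0.75 by the brightest probe sets and 0.57 over all tested probe sets.

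**Figure D3:**
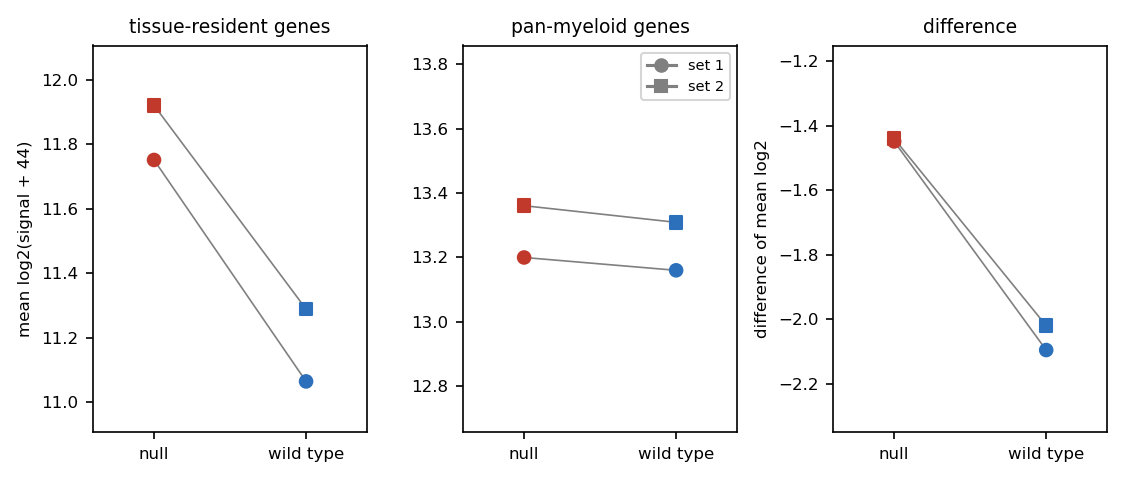
Mean log2(signal + 44) of the 6 resident markers and of the 17 pan-myeloid genes on each array, joined within each set, with null left of wild type, and their difference in the last panel. The resident mean was 11.75 and 11.92 in the null pools, against 11.06 and 11.29 in the wild-type pools, and the pan-myeloid mean was 13.20 and 13.36, against 13.16 and 13.31.

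Of the scavenger receptors and lectins, Clec10a was higher and 3 of the 4 tested did not pass. Clec10a, the galactose-type lectin CD301 of macrophages and dendritic cells, read 2897 and 3396 in the null pools, against 1515 and 1223 in the wild-type pools. It was 2.26-fold higher (log2 1.18 ± 0.19, limma adjusted p = 0.00111), with a log2 ratio of 0.92 in set 1 and 1.44 in set 2. Clec4n, dectin-2, a receptor for fungal mannans, pointed the other way. It read 2107 and 1849 in the null pools, against 2707 and 2889 in the wild-type pools, a log2 ratio of -0.49 ± 0.17 that did not pass (limma adjusted p = 0.0942). Its second probe set gave -0.75 (limma adjusted p = 0.0849), and in both the groups did not overlap. Clec7a, the beta-glucan receptor dectin-1, had a log2 ratio of 0.16 ± 0.13 (limma adjusted p = 0.543). Msr1, scavenger receptor A, had -0.14 ± 0.32 (limma adjusted p = 0.868), at signals of 594 and 848 in the null pools, against 773 and 797 in the wild-type pools, close to the unspecific level. Marco, a scavenger receptor of alveolar and splenic macrophages, read at most 54.2 on any array.

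Retnla had the highest log2 ratio of the 32 genes. This gene encodes RELM-alpha, a secreted protein of alternatively activated macrophages that adipose tissue also makes. It read 31024 and 40379 in the null pools, against 12624 and 17262 in the wild-type pools, a 2.39-fold difference (log2 1.26 ± 0.08, limma adjusted p = 3.718e-07) with no overlap. Arg1, arginase 1, another gene induced by interleukin-4, did not pass. It read 25394 and 15716 in the null pools, against 19425 and 20240 in the wild-type pools, with a log2 ratio of 0.39 in set 1 and -0.36 in set 2, so the sets had opposite signs (0.01 ± 0.13, limma adjusted p = 0.977). Chil3, the chitinase-like protein YM1, read 173 and 108 in the null pools, against 30.9 and 20.5 in the wild-type pools, all at the unspecific level.

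Neither chemokine receptor passed limma's test, and neither had an unadjusted p under 0.05. Ccr2, which draws monocytes into tissue, read 4788 and 3518 in the null pools, against 3715 and 3412 in the wild-type pools, a log2 ratio of 0.20 ± 0.13 (limma adjusted p = 0.439). Cx3cr1, the fractalkine receptor, read 4742 and 3931 in the null pools, against 4897 and 4423 in the wild-type pools, a log2 ratio of -0.11 ± 0.12 (limma adjusted p = 0.679). The groups overlapped in the brightest probe set of both genes. A second tested probe set of Ccr2 read 969 and 871 in the null pools, against 730 and 682 in the wild-type pools. It did not overlap, and its log2 ratio of 0.36 did not pass (limma adjusted p = 0.560).

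**Figure D4:**
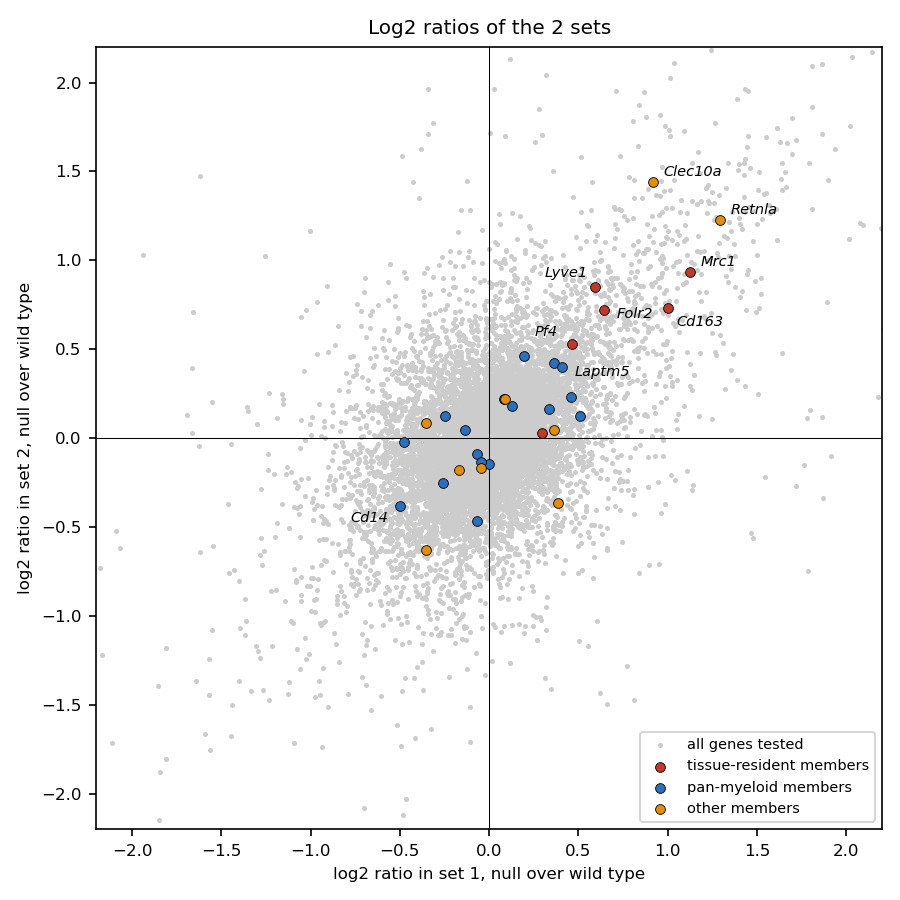
Log2 ratio in set 1 (x) against set 2 (y), null over wild type, for all 11514 genes tested (grey) and the 32 genes, with resident genes in red, pan-myeloid in blue and the others in orange. Axes end at 2.2 and leave out 53 genes. Clec10a, Retnla, Mrc1 and Cd163 lie above 0.7 in both sets, Cd14 lies below 0 in both, and the other pan-myeloid genes lie between -0.48 and 0.51 in each set.

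Other genes associated with resident macrophages were partly higher too. Of 19 tested, 7 were higher and 1 was lower, with a median of 0.27, and 4 more (Timd4, Ccl24, Cd209b, Vsig4) were at the unspecific level. Cd209f, a C-type lectin of the DC-SIGN family, read 2752 and 4422 in the null pools, against 1478 and 1231 in the wild-type pools, a 2.54-fold difference (log2 1.34 ± 0.21, limma adjusted p = 0.000977). Its relatives Cd209d and Cd209g were higher as well, with log2 ratios of 1.24 and 1.02 (limma adjusted p = 0.0494 and 0.0147). Cd209d read 608 and 285 in the wild-type pools and passed the filter, a mean over all arrays, only through its null values. Ccl8, a monocyte-attracting chemokine, read 27806 and 27177 in the null pools, against 14576 and 15719 in the wild-type pools (log2 0.86 ± 0.09, limma adjusted p = 1.806e-05). The lower gene, Cbr2, a carbonyl reductase, read 14036 and 16243 in the null pools, against 21598 and 20951 in the wild-type pools, and fell by 0.49 on the log2 scale (named after its value was seen). Of the NADPH oxidase genes, which make superoxide in phagocytes, 1 of 5 was higher, the p22-phox gene Cyba, at 1.31-fold. Of 13 lysosomal and lipid-handling genes none was higher and 2 were lower, Lipa, lysosomal acid lipase (0.749-fold), and Plin2, a lipid droplet coat protein (0.793-fold).

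Markers of dendritic cells gave 1 higher gene of 8 tested, Fscn1, the actin-bundling protein fascin, which other cells also make. The 8 all had higher values in the null pool of both sets, with a median log2 ratio of 0.36 (0.30 in set 1 and 0.48 in set 2), and 2 had an unadjusted p under 0.05. The share of all genes that did so is not given here. Flt3 and Siglech, of the same list, fell below the filter, were not tested and went the other way in both sets. Flt3 read 523 and 314 for null, against 530 and 861 for wild type. Siglech read 53.4 and 430 for null, against 310 and 648 for wild type. Each exceeded the unspecific level on only 1 array, a wild-type one. Fscn1 read 11201 and 10858 in the null pools, against 5468 and 5538 in the wild-type pools (2.00-fold, limma adjusted p = 1.629e-05). Xcr1, Irf4, Ccr7 and Cd80, markers of dendritic cell subsets and their activation, were at or below the unspecific level. Of 5 monocyte markers, 1 was higher, Hp, haptoglobin, at 1.70-fold, and of 4 neutrophil markers 1 was lower, S100a8, a calprotectin subunit. S100a8 read 9956 and 8818 in the null pools, against 35879 and 32530 in the wild-type pools (0.275-fold, limma adjusted p = 1.962e-08), while S100a9, its partner, was at the unspecific level on every array. In all, 7 neutrophil markers were at that level. The rest tested did not pass: Ltf had a log2 ratio of 0.23, Csf3r -0.19 and Mmp9 -0.58. None of 5 T and NK cell markers tested passed (1 at an unadjusted p under 0.05).

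Fibroblast and fat cell markers were also higher in the same null pools. Of 12 fibroblast markers, 11 were higher, with a median log2 ratio of 1.33, and their summed signal was 339602 and 381904 in the null pools, against 161499 and 163035 in the wild-type pools. Of 5 adipocyte markers tested, 4 were higher, with a median of 1.41, and their summed signal was 60610 and 53436 in the null pools, against 24686 and 21745 in the wild-type pools. Of 6 endothelial markers 2 were higher (median 0.71), and of 8 epithelial markers 1 was higher, Krt19, at 1.29-fold (median 0.22). None of the fibroblast markers and 1 of the adipocyte markers was at the unspecific level on all arrays. Clec3b, 1 of the 11 fibroblast markers that were higher, read 649 and 198 in the wild-type pools. It passed the filter only through its null values. The part of these tissues in the higher Retnla, Clec10a and resident marker signals was not tested. The part of the Gapdh 3'/5' ratio was not tested either.

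**Figure D5:**
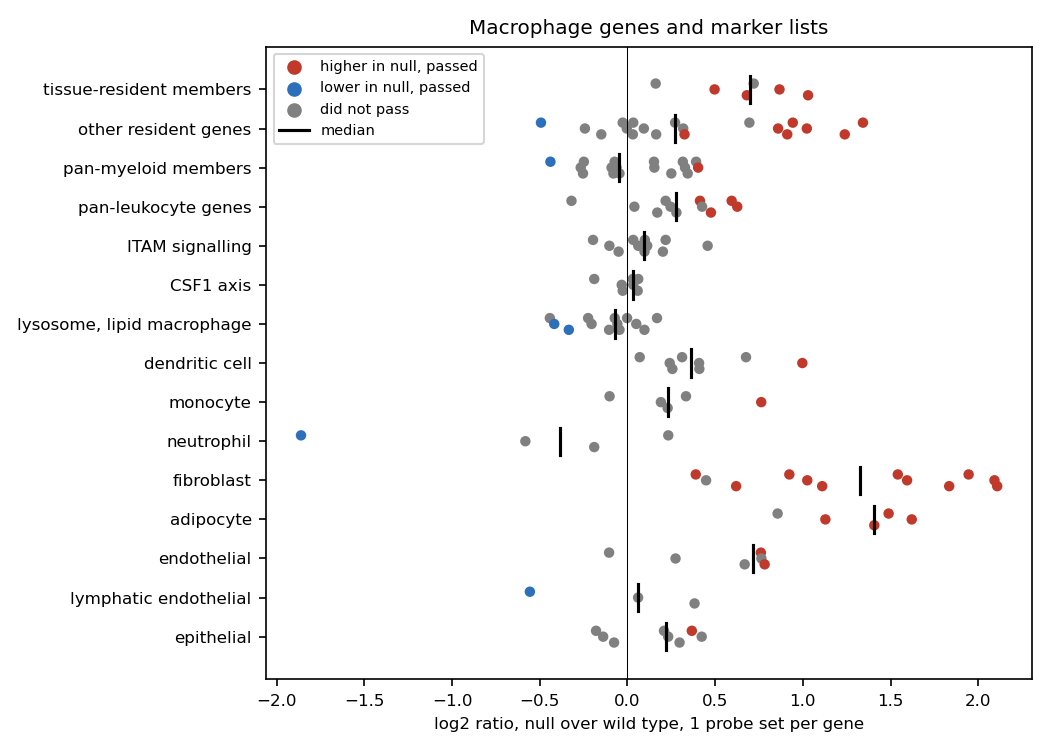
Log2 ratio, null over wild type, of every tested gene of each list (points), with the list's median as a bar. Fibroblast and adipocyte markers have the highest medians among the lists named here (1.33 and 1.41), resident members lie at 0.70, and pan-myeloid members lie at -0.05.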

How the data were processed

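RNA of 4 pools of mammary tumors was hybridised to 1-colour Affymetrix arrays. Deposited values were linear probe set intensities, made by the authors with MAS5, per the submitters' processing notes. A genome build and the MAS5 version are not given in the sources used here. Since that method scales every array, nothing further was done to scale them. Of 45101 probe sets, 64 controls were left out. The probe annotation gave 1 symbol to 34945 of the 45037 left, several to 932 and none to 9160. Log2(intensity + 44), where 44 is the rounded 10th percentile, understates changes at low signal. Those with a mean intensity at or above the median (22519) were fitted with limma 3.58.1 in R 4.3.3 (lmFit, eBayes with an intensity trend, set and genotype as terms), and p-values were adjusted by Benjamini-Hochberg. The fit, tested on simulated data, leaves 1 residual degree of freedom plus 13.02 prior ones. An exact permutation of 2 against 2 pools cannot go below p = 0.333, so none is given.

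The set is a block because the design text pairs 1 null with 1 wild-type pool in each set. Deviations from group means correlated at 0.605 within sets, by construction the same for both. The number of arrays limits the precision, and pooling hides the spread between animals.

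The members and lists were chosen with earlier results of these data known. Full values are given for Mrc1, Cd163, Lyve1, Folr2, each gene that passed and the 6 further genes with the largest smaller ratio of the 2 sets in 1 direction, the others by range or up to 2 per role. From lists of non-members, up to 4 genes that passed were named by the same measure, and any other was named after its values were seen. The pan-leukocyte list holds 1 further gene that passed and is not reported here. Alternatives were another normalization, pseudocount, filter, fit without the block or the trend, robust variance, other probe sets, each set alone and each array left out.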

Additional observations from a re-analysis of the deposited data

How the results depend on the processing

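The calls rest on the set block: without the block, which ignores the paired sets, 0 probe sets passed in place of 1645 (1280 at an unadjusted p under 0.05), and 0 of the member genes were called higher (8 unadjusted) and 0 lower (0 unadjusted). Without the intensity trend the counts were also 0 (3486 probe sets, 9 member genes higher and 2 lower at an unadjusted p under 0.05). With each array left out in turn, fitted without the set term and with the lone array assumed to vary like the others, 4 to 27 probe sets passed (19 without null replicate 1) and 0 member genes in either direction. Quantile or cyclic loess normalization, other pseudocounts and filters and robust variance left the count of probe sets within 1.5 times and 6 to 8 member genes higher. The median log2 ratio of the member genes was 0.15, with 0.0227 to 0.22 when an array was left out. The lowest came without null replicate 2, followed by 0.0428 without wild-type replicate 1, and it was 0.123 in set 2 alone.

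The resident minus the pan-myeloid median, 0.75, was 0.77 after quantile and 0.78 after cyclic loess normalization, 0.76 with a pseudocount of 16 and 0.69 with 200, 0.78 without a filter and 0.73 with a stricter one. It was 0.57 over all tested probe sets, 0.78 against the pan-macrophage genes alone (chosen after seeing the data), and 0.60 to 0.68 with an array left out (0.64 without null replicate 1, 0.63 without wild-type replicate 2), with 0.62 in set 1 and 0.61 in set 2 alone. Lyve1 passed after quantile normalization (adjusted p = 0.0454) and with a pseudocount of 200 (0.0488), and Folr2 did not pass without a filter. With the mean of all its tested probe sets, Laptm5 had a log2 ratio of 0.18. With 1 array left out and no set term, the log2 ratio of Cd14 ran between -0.62 and -0.26 (-0.26 without null replicate 1), that of Fcer1g between 0.0175 (without null replicate 2) and 0.64 (without null replicate 1), and that of Aif1 between 0.0233 (without wild-type replicate 2) and 0.76 (without wild-type replicate 1). Itgax ran between -0.42 and -0.09, and Csf1 between -0.34 and -0.015. No gene that passed changed sign under an alternative that was run, where a gene's tested probe sets entered as their mean. Taken singly, a tested probe set of Laptm5 had a log2 ratio of -0.15. Signals near the unspecific level of 565 limit what can be read from dim genes.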

Other observations

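Of the mast cell markers, 3 were tested and 2 were higher in the null tumors. The third, Kit, was lower in the null pool of both sets (log2 -0.27 and -0.15) and did not pass. A further 5, Tpsb2 and Tpsab1 among them, were at the unspecific level on all arrays. Cpa3, mast cell carboxypeptidase A, read 889 and 1093 in the null pools, against 177 and 447 in the wild-type pools. Both wild-type values were under the unspecific level of 565, so it was at least 1.69-fold higher against that level (limma adjusted p = 0.0221). Cma1, the mast cell chymase, read 1018 and 1704 in the null pools, against 574 and 588 in the wild-type pools (log2 1.13, limma adjusted p = 0.0358). Of 4 B and plasma cell markers tested, Ighm, the IgM heavy chain, was higher (log2 0.59, limma adjusted p = 0.0152), Ebf1, a B cell factor that fat precursors also carry, was higher (log2 1.11, limma adjusted p = 0.0383), and Jchain, the joining chain of secreted IgM and IgA, was lower (log2 -0.82, limma adjusted p = 0.038). Cpa3, Cma1 and Ebf1 passed the filter, a mean over all 4 arrays, only through their null values, so the filter itself favoured higher null values. F13a1, the coagulation factor XIII A chain of resident macrophages, read 17080 and 16090 in the null pools, against 8236 and 9392 in the wild-type pools (1.88-fold, limma adjusted p = 2.93e-05). Igf1, a growth factor made by macrophages and fibroblasts, was 1.92-fold higher (limma adjusted p = 0.000605). F13a1 and Igf1 were named after their values were seen.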
